A study of Homo sapiens with 8 samples.

Results

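Krüppel-like factors (KLFs) are zinc finger transcription factors, and 10 of their genes, KLF2, KLF3, KLF4, KLF5, KLF6, KLF7, KLF9, KLF10, KLF11 and KLF13, were followed here by symbol among the 58787 gene rows of a count table. RNA sequencing measured polyadenylated RNA of IMR32, an established human neuroblastoma line with amplified MYCN that carries no engineered allele (genotype WT in the labels). The libraries labelled CR31B came from cells given this compound at its IC50 for 6 h, and those labelled DMSO from cells given the vehicle at 0.1%. Each group held 4 libraries, numbered as pairs 1 to 4, and the design text calls them biological replicates. CR31B is a rocaglate, one of the compounds that clamp the translation initiation helicase eIF4A onto RNA. The labels give 1 line, 1 concentration and 1 time point, and whether replicates were separate cultures is not stated, so p-values measure the spread between these libraries.

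KLF proteins bind GC-rich and CACCC elements through 3 C2H2 zinc fingers at the C terminus, and the rest of the protein decides whether a target is raised or repressed. KLF3 recruits the corepressor CtBP, KLF9, KLF10, KLF11 and KLF13 recruit SIN3A, and KLF2, KLF4, KLF5, KLF6 and KLF7 can act as activators through histone acetyltransferases. Several KLF mRNAs are induced within minutes to hours by growth factors, hormones or stress, and in neurons the family is known for effects on axon growth, where KLF4 and KLF9 restrain and KLF6 and KLF7 promote it.

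Total counts ranged from 43687828 to 64715535 per library. Pair 1 was sequenced paired-end and pairs 2 to 4 single-end, per the labels, and pair 1 stood apart from the others: of 6901 genes called in pairs 2 to 4, 98.9% had the opposite sign in pair 1. The counts were also compared library by library, with a mean chi-square per gene that is 1 for sampling noise. The library labelled CR31B replicate 1 lay at 9.38 to 17.1 from the single-end libraries labelled DMSO and at 93.4 to 143 from those labelled CR31B. For the library labelled DMSO replicate 1 the distances were 7.93 to 20.6 from the single-end libraries labelled CR31B and 87.9 to 108 from those labelled DMSO. Both libraries of pair 1 were thus nearest to the group of the other label. No source used here says whether the labels of pair 1 are exchanged, and every value for pair 1, for the interaction and for all 8 libraries depends on them. The KLF genes are therefore described first in pairs 2 to 4, with pair 1 and all 8 libraries as labelled given apart. No label was changed. CR31B acts on a protein, and no transcript was used here as a check of the labels. The labelled cell type was checked by its markers: all 10 neuroblast markers passed the filter on low counts, with a summed level of 2938 to 4329 CPM (counts set to one common library size) over the 8 libraries. In pairs 2 to 4 that sum was 3973 to 4329 CPM in the libraries labelled CR31B and 2948 to 3029 CPM in those labelled DMSO. There 6 of the markers were called higher and 3 lower, beside 23.8% higher and 17.6% lower of all tested genes. Pair 1 had 2938 CPM with CR31B and 4047 CPM with DMSO. In bulk RNA, fewer cells of a type and less RNA per cell cannot be told apart. Markers of other cells were low, with summed levels of at most 81.1 CPM for the 7 mesenchymal, 2.89 CPM for the 5 endothelial, 0.234 CPM for the 4 epithelial and 0.886 CPM for the 4 leukocyte genes. Defining markers of these cells, PRRX1, SOX10, KRT5, KRT18, CD3E and CD68, had 0 counts in all 8 libraries. The part of these marker differences in the KLF results was not tested.

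In pairs 2 to 4, 5 of the 10 KLF mRNAs were higher in the libraries labelled CR31B and 0 were lower. KLF9 rose 2.19-fold, KLF5 1.81-fold, KLF3 1.79-fold, KLF7 1.27-fold and KLF10 1.26-fold. KLF4, KLF6, KLF13 and KLF2 did not pass the test, and KLF11 had too few counts to be tested. With replicate number as a block, which the libraries' deviations allow, 7 were called, 6 higher with KLF4 added and 1 lower, KLF13, while 51.1% of all tested genes were called (28.1% higher, 23.1% lower). The first calls used edgeR's quasi-likelihood test with Benjamini-Hochberg adjustment over 16696 genes and an adjusted p under 0.05. Of all tested genes 41.3% were called, 23.8% higher and 17.6% lower, so a call by itself does not set a KLF gene apart. At least 2-fold changes were rarer, with 2.68% of tested genes and KLF9 alone among the KLF genes. The same 5 genes were the ones whose 3 libraries labelled CR31B all lay above the 3 labelled DMSO, an outcome that 27.7% of tested genes shared (24.4% had the reverse, 52.1% either). The median log2 fold change was 0.33 over the 9 KLF genes that passed the filter on low counts and -0.0070 over all tested genes. KLF2 passed that filter only in pairs 2 to 4 and KLF11 in neither set of libraries.

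**Figure D1:**
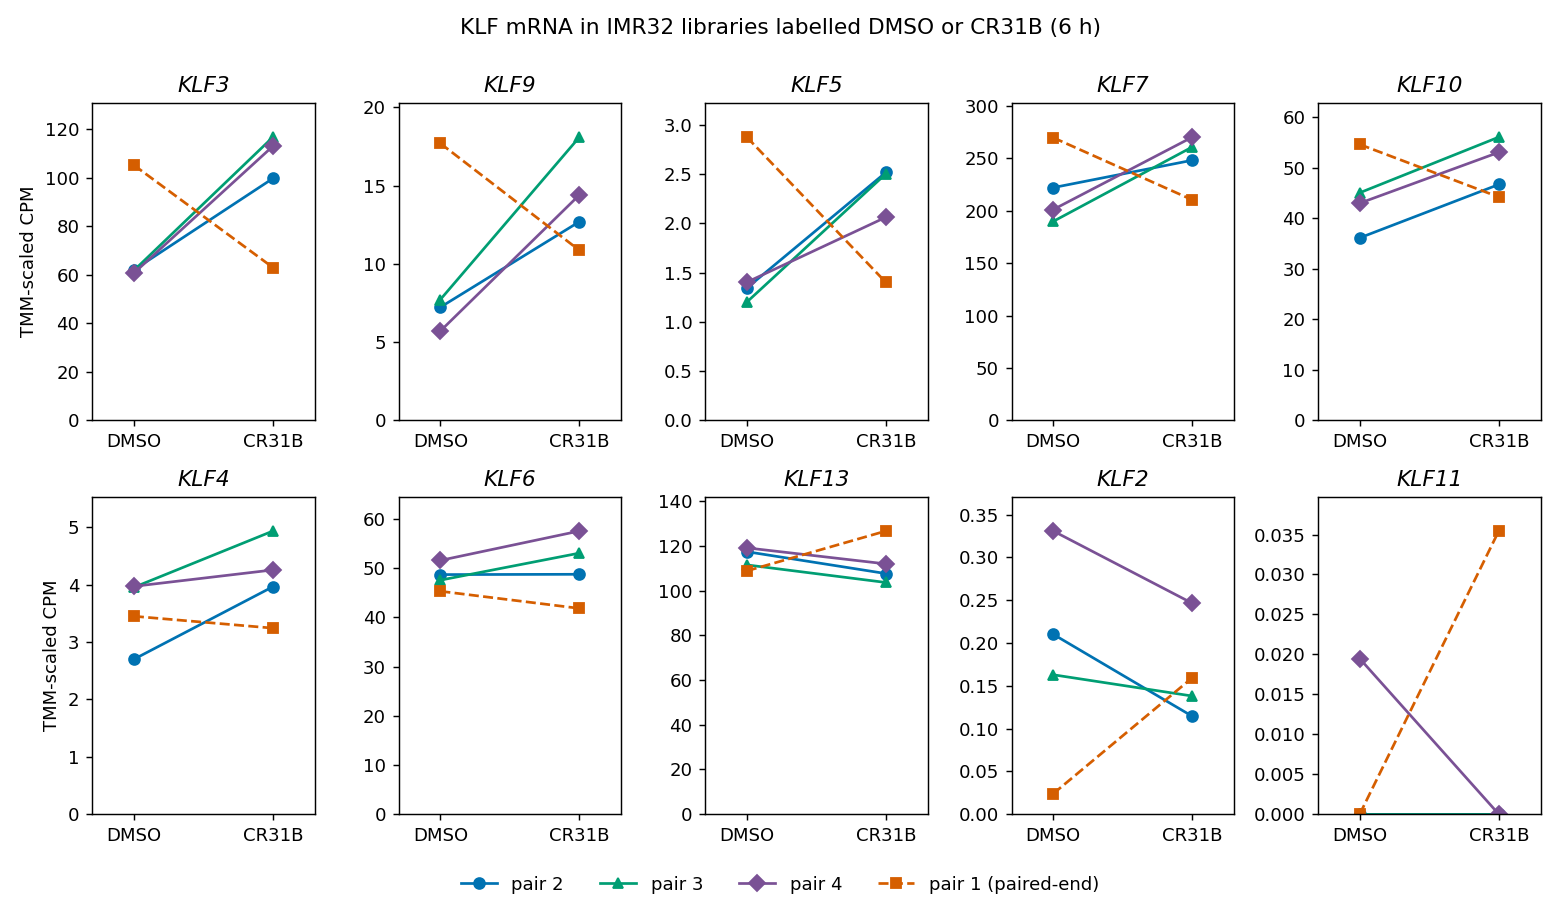
TMM-scaled CPM (y axis, linear from 0) of each KLF gene in the 8 libraries, with a line joining the same-numbered libraries labelled DMSO and CR31B; pair 1, sequenced paired-end, is dashed with squares. For KLF3, KLF9, KLF5, KLF7 and KLF10 the solid lines of pairs 2 to 4 rise and the dashed line falls, and KLF11 has at most 2 counts in a library.

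KLF9, a small factor known as a target of glucocorticoid and thyroid hormone receptors, moved most. Its level in the libraries labelled DMSO was 7.23, 7.72 and 5.70 CPM in replicates 2, 3 and 4, and 17.7 CPM in replicate 1. In those labelled CR31B it was 12.7, 18.1 and 14.4 CPM in replicates 2, 3 and 4, and 10.9 CPM in replicate 1. The groups did not overlap in pairs 2 to 4, and in pair 1 the library labelled DMSO was the higher one. On the log2 scale KLF9 rose by 1.13 ± 0.147 (SE; adjusted p 0.000169, edgeR) in pairs 2 to 4. Over all 8 libraries its estimate was 0.69 ± 0.318 (adjusted p 0.707, edgeR). ENSG00000119138 is annotated on the minus strand of chromosome 9, 70384597 to 70414624 (GRCh38, GENCODE release 29).

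KLF3, a repressor that works through CtBP and is best known from red cell and fat cell development, rose in each of pairs 2 to 4. Libraries labelled DMSO had 62.1, 61.8 and 60.7 CPM in replicates 2, 3 and 4 and 105 CPM in replicate 1. With CR31B the values were 99.8, 117 and 113 CPM in replicates 2, 3 and 4 and 63.0 CPM in replicate 1. The library labelled CR31B replicate 1 thus sat just above the single-end libraries labelled DMSO, and the library labelled DMSO replicate 1 lay inside the range of the single-end libraries labelled CR31B. The estimate for pairs 2 to 4 was 0.84 ± 0.0624 on the log2 scale (SE), and its adjusted p of 4.97e-06 was the smallest of the 9 tested KLF genes (edgeR). All 8 libraries gave 0.46 ± 0.252 (adjusted p 0.707, edgeR). ENSG00000109787 is annotated on the plus strand of chromosome 4, 38664196 to 38701042. Exons of KLF3-AS1 on the other strand cover 4.22% of its exonic bases, and KLF3-AS1 itself had 7 to 22 counts per library against 3120 to 6771 for KLF3. The name of the deposited table holds the word reverse, which may be a strand setting, and no other source used here states one, so whether reads in that stretch were separated by strand is uncertain.

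KLF5, a driver of proliferation in gut and other epithelia, was scarce and still rose. It had 72 to 145 counts per library. Libraries labelled DMSO held 1.34, 1.20 and 1.40 CPM in replicates 2, 3 and 4 and 2.87 CPM in replicate 1, and those labelled CR31B 2.52, 2.50 and 2.06 CPM in replicates 2, 3 and 4 and 1.40 CPM in replicate 1. No overlap was seen between the groups in pairs 2 to 4, and pair 1 ran the other way. KLF5 changed by 0.85 ± 0.152 on the log2 scale (SE; adjusted p 0.00127, edgeR) in pairs 2 to 4. With all 8 libraries the estimate was 0.39 ± 0.314 (adjusted p 0.707, edgeR). ENSG00000102554 is annotated on the plus strand of chromosome 13, 73054976 to 73077542.

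KLF7, which is needed for the development of sensory neurons, was the most abundant of the 10. Libraries labelled DMSO had 222, 190 and 201 CPM in replicates 2, 3 and 4 and 270 CPM in replicate 1. Those labelled CR31B had 248, 261 and 270 CPM in replicates 2, 3 and 4 and 210 CPM in replicate 1. All 3 single-end libraries labelled CR31B lay above all 3 labelled DMSO, and pair 1 was reversed. Its log2 rise in pairs 2 to 4 was 0.35 ± 0.0645 (SE; adjusted p 0.00163, edgeR), against 0.17 ± 0.131 over all 8 libraries (adjusted p 0.707, edgeR). With loess offsets for GC content and gene length the KLF7 value in pairs 2 to 4 was 0.17 with an adjusted p of 0.0683 (edgeR), so its call depended on that setting. ENSG00000118263 is annotated on the minus strand of chromosome 2, 207074137 to 207167267.

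KLF10, known as TGF-beta inducible early gene 1, showed the smallest rise that passed the test. Libraries labelled DMSO had 36.1, 45.0 and 43.0 CPM in replicates 2, 3 and 4 and 54.6 CPM in replicate 1, against 46.7, 56.1 and 53.1 CPM in replicates 2, 3 and 4 and 44.2 CPM in replicate 1 with CR31B. The lowest single-end library labelled CR31B was close above the highest labelled DMSO. Pairs 2 to 4 gave 0.33 ± 0.0908 on the log2 scale (SE; adjusted p 0.0145, edgeR) and all 8 libraries 0.17 ± 0.135 (adjusted p 0.707, edgeR). Upper quartile scaling gave 0.23 with an adjusted p of 0.0701, total counts 0.25 with 0.0579, and leaving out CR31B replicate 4 gave 0.32 with 0.0501 (edgeR), so KLF10 was not called under any of these. ENSG00000155090 is annotated on the minus strand of chromosome 8, 102648779 to 102655902.

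KLF4, a reprogramming factor that restrains axon growth in retinal neurons, had overlapping groups. Its level was 2.7, 3.95 and 3.97 CPM with DMSO and 3.97, 4.94 and 4.26 CPM with CR31B in replicates 2, 3 and 4, and 3.45 and 3.24 CPM in the same order in replicate 1. For pairs 2 to 4 the log2 estimate was 0.31 ± 0.163 (SE; adjusted p 0.151, edgeR), and its 95% interval of -0.049 to 0.68 includes a change as large as that of KLF7. With replicate number as a block, KLF4 passed at 0.32 and an adjusted p of 0.0321 (edgeR). Without DMSO replicate 2, the lowest library, the estimate was 0.15 (adjusted p 0.452, edgeR). All 8 libraries gave 0.21 ± 0.165 (adjusted p 0.707, edgeR). ENSG00000136826 is annotated on the minus strand of chromosome 9, 107484852 to 107490482.

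KLF6, an early gene after injury and a candidate tumour suppressor, did not pass the test. It had 48.7, 47.6 and 51.6 CPM with DMSO and 48.7, 53.0 and 57.5 CPM with CR31B in replicates 2, 3 and 4. Its groups overlapped. The estimate in pairs 2 to 4 was 0.11 ± 0.0674 on the log2 scale (SE; adjusted p 0.222, edgeR), and the 95% interval of -0.040 to 0.26 excludes a change as large as that of KLF7. All 8 libraries gave 0.053 ± 0.0836 (adjusted p 0.801, edgeR). Pair 1 held the lowest value of each group, 41.8 CPM under CR31B and 45.3 CPM under DMSO. ENSG00000067082 is annotated on the minus strand of chromosome 10, 3775996 to 3785281.

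KLF13 binds SIN3A and is known from the CCL5 gene in T cells. It was the one gene above 1 CPM among the 10 with a lower mean under CR31B in pairs 2 to 4. Values were 117, 112 and 119 CPM with DMSO and 108, 104 and 112 CPM with CR31B in replicates 2, 3 and 4, each pair lower with CR31B although the groups overlapped narrowly near 112 CPM. The log2 estimate of -0.10 ± 0.0514 (SE) for pairs 2 to 4 did not pass (adjusted p 0.128, edgeR), and all 8 libraries gave -0.025 (adjusted p 0.905, edgeR). The replicate block gave the same -0.10 with an adjusted p of 0.0394, and upper quartile scaling -0.20 with 0.00365 total counts -0.18 with 0.00542 and a filter at 1 CPM -0.14 with 0.033 (edgeR). Pair 1 ran the other way, at 127 CPM under CR31B and 109 CPM under DMSO. ENSG00000169926 is annotated on the plus strand of chromosome 15, 31326855 to 31435665.

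KLF2, the shear stress factor of endothelium, and KLF11, known as TGF-beta inducible early gene 2, were at the floor of detection. KLF2 had 13, 11 and 17 counts with DMSO and 6, 8 and 11 with CR31B in replicates 2, 3 and 4, and 1 and 9 in the same order in replicate 1. Its log2 fold change in pairs 2 to 4 was -0.49 with a 95% interval of -1.41 to 0.43 and an adjusted p of 0.379 (edgeR), so no difference was detectable at this depth, and over all 8 libraries it did not pass the filter. KLF11 had 3 counts in all, 2 in the library labelled CR31B replicate 1 and 1 in the library labelled DMSO replicate 4. A count of 0 allows up to 3 counts, or 0.0444 to 0.0719 CPM in these libraries, as a limit for counting error alone. How the counting treated reads that fit more than 1 gene is not given in the sources used here. ENSG00000127528 (KLF2) lies on chromosome 19 from 16324817 to 16327874 and ENSG00000172059 (KLF11) on chromosome 2 from 10042849 to 10054836, both on the plus strand. AC104794.4, on the other strand, covers 9.07% of the exonic bases of KLF11 and had 0 counts.

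**Figure D2:**
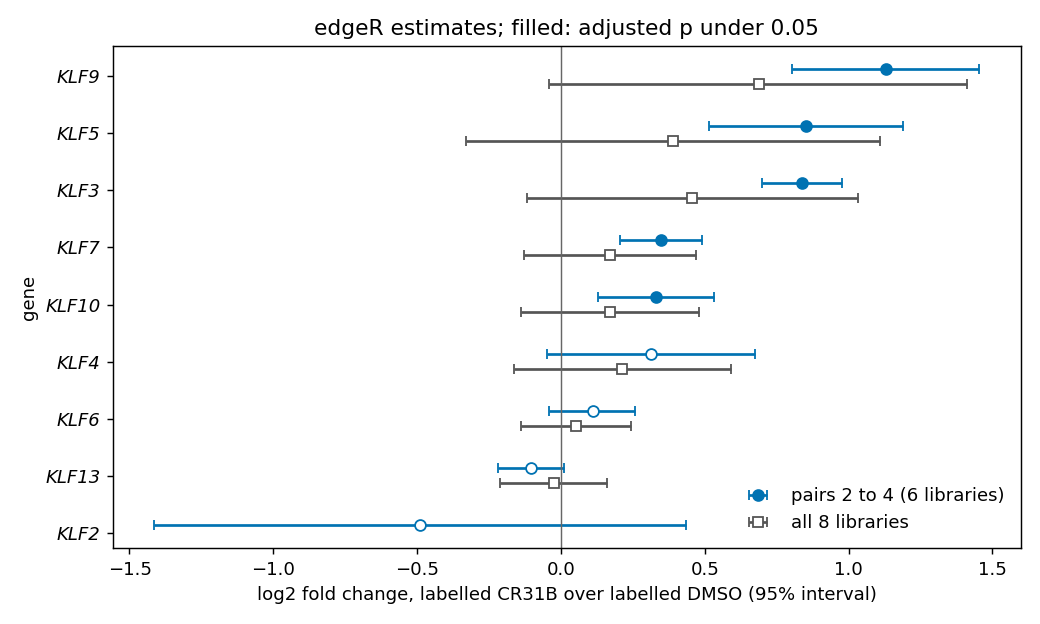
Log2 fold change of CR31B over DMSO with its 95% interval from edgeR (x axis) for 9 KLF genes (y axis), in pairs 2 to 4 (circles) and in all 8 libraries as labelled (squares); filled symbols have an adjusted p under 0.05. The 5 filled circles lie from 0.33 (KLF10) to 1.13 (KLF9), and no square is filled.

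Under the labels as given, over all 8 libraries with sequencing layout as a term, 0 of the 8 KLF genes that passed the filter were called, and 0% of 16518 tested genes were called. At an unadjusted p under 0.05 there were 205 such genes and 0 KLF genes (edgeR), and DESeq2 and limma voom also called 0 genes. For KLF9 the unadjusted p was 0.0611. All 8 of these genes had 1 sign in pairs 2, 3 and 4 and the other sign in pair 1. Of the 16696 genes tested in pairs 2 to 4, 69.8% had 1 sign in those pairs. In 84.1% of them the sign in pair 1 was opposite to that of the mean of pairs 2 to 4. The share of genes with both was not computed. For KLF9 the log2 CPM differences were 0.81, 1.23 and 1.33 in pairs 2 to 4 and -0.70 in pair 1. For KLF5 they were 0.90, 1.05 and 0.55 against -1.03, and for KLF3 0.69, 0.92 and 0.90 against -0.74. KLF7 had 0.16, 0.46 and 0.43 against -0.36, and KLF10 0.37, 0.32 and 0.30 against -0.30. The differences of KLF4 (0.55, 0.32, 0.10 and -0.089 in pair 1), KLF6 (0.0020, 0.16, 0.16 and -0.12) and KLF13 (-0.13, -0.10, -0.090 and 0.22) were smaller. With total count scaling in place of TMM the sign of KLF6 in pair 2 (-0.077) and of KLF4 in pair 1 (0.0060) changed, which leaves 6 genes with the pattern.

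**Figure D3:**
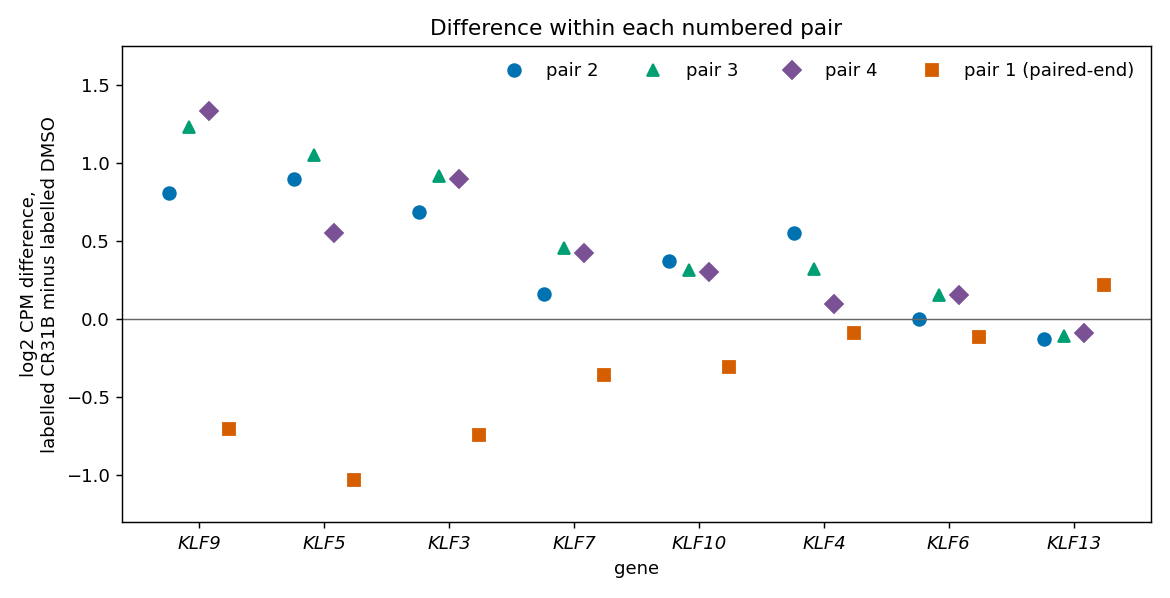
Log2 CPM difference of the library labelled CR31B minus the same-numbered library labelled DMSO (y axis) for 8 KLF genes (x axis), with 1 symbol per pair. For KLF9, KLF5 and KLF3 pairs 2 to 4 lie between 0.55 and 1.33 and pair 1 between -1.03 and -0.70.

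The departure of pair 1 from pairs 2 to 4 was tested as an interaction of treatment with layout (edgeR, Benjamini-Hochberg), in which 42.5% of 16518 genes were called, 18.4% with a higher and 24.1% with a lower difference in pair 1. Of the KLF genes 6 passed: KLF5 with an interaction of -1.89 ± 0.302 on the log2 scale (SE, adjusted p 0.000665), KLF9 with -1.83 ± 0.290 (0.000612), KLF3 with -1.58 ± 0.126 (7.38e-06), KLF7 with -0.70 ± 0.129 (0.00154), KLF10 with -0.63 ± 0.182 (0.0178) and KLF13 with 0.33 ± 0.103 (0.0266). KLF4 and KLF6 did not pass, with adjusted p of 0.37 and 0.213 (edgeR). Error here is estimated from pairs 2 to 4 alone, as pair 1 has 1 library of each group.

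Levels were compared between genes per kb of exon, since longer mRNAs collect more reads. The median over 8 libraries was 25.4 CPM per kb for KLF7, 12.9 for KLF3, 11.9 for KLF13, 11.5 for KLF10 and 7.93 for KLF6, all above the median of 3.71 over tested genes. Below that median lay KLF9 at 2.28 CPM per kb, KLF4 at 1.08, KLF5 at 0.445 and KLF2 at 0.0799. KLF7 was the highest in all 8 libraries, and its range of 20.5 to 29.2 CPM per kb did not meet that of KLF3, 9.64 to 18.6. The ranges of KLF3, KLF13 and KLF10 overlapped, and each neighbour was the higher one in 4 of 8 libraries. Their order by mean differed between the labels in pairs 2 to 4. With DMSO it was KLF13 (12.3 ± 0.425 CPM per kb, SD, n = 3), KLF10 (10.3 ± 1.17) and KLF3 (9.77 ± 0.112). With CR31B it was KLF3 (17.5 ± 1.42), KLF10 (13 ± 1.20) and KLF13 (11.5 ± 0.442). In the library labelled DMSO replicate 2, KLF10 (9.02 CPM per kb) lay below KLF3 (9.85). KLF9 remained above KLF4, and KLF4 above KLF5, in all 8 libraries. Summed over the 10 genes, KLF mRNA took 570 to 627 CPM in the single-end libraries labelled CR31B and 469 to 498 CPM in those labelled DMSO, while in pair 1 these were 502 and 608 CPM.

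**Figure D4:**
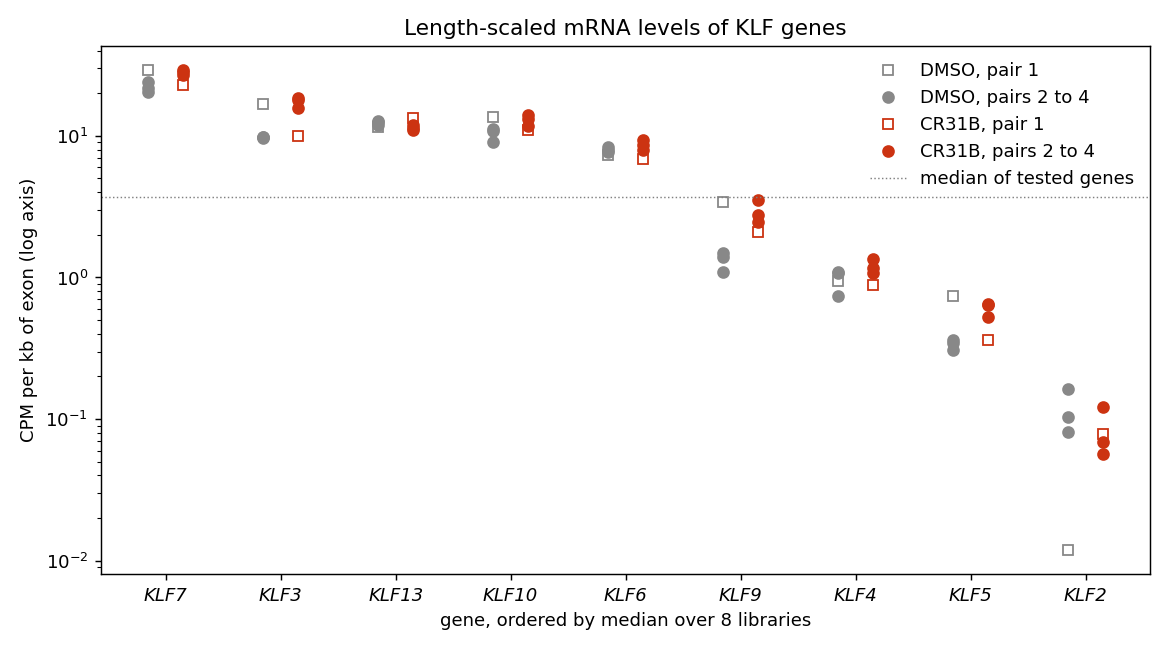
TMM-scaled CPM per kb of exon (y axis, log scale) of 9 KLF genes (x axis) in each library; grey is DMSO, red CR31B, open squares pair 1, and the dotted line marks the median of tested genes at 3.71. The 5 most abundant genes lie above the line in every library and KLF9, KLF4, KLF5 and KLF2 below it.

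Across the 8 libraries the log2 levels of the 5 genes called higher in pairs 2 to 4 moved together, with Pearson coefficients from 0.70 (KLF7 with KLF10) to 0.94 (KLF3 with KLF7). These points share the treatment labels and the library depth, and the 5 genes were picked for a rise in pairs 2 to 4. High coefficients were thus likely beforehand, and they are a description. KLF13 ran against all 5, from -0.61 with KLF9 to -0.77 with KLF3. KLF6 was loosely tied to them, from 0.091 with KLF9 to 0.46 with KLF3. Outside the family, among 10792 genes of at least 5 CPM, the closest by Pearson coefficient over the 8 libraries were SRGAP2 (0.9985) and ZNF217 (0.9981) for KLF3, COLGALT2 (0.9953) and TDRKH (0.9931) for KLF9, BTBD10 (0.99) and RNF14 (0.9886) for KLF5, and ANAPC1 (0.9915) and UBE2E2 (0.9888) for KLF7. For KLF10 they were DPYSL5 (0.9876) and METTL3 (0.9838), for KLF13 ARC (0.9888) and STX10 (0.9855), for KLF4 HTATSF1 (0.9746) and DOK4 (0.963), for KLF6 MYO6 (0.9578), and for KLF2 CNTFR (0.9386) and MMP2 (0.935).

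The sequence just upstream of a gene is where KLF, SP and other factors bind, and promoter windows of 300 bases (250 before and 50 after the annotated start) were read from RefSeq (GRCh38.p14) for 8 of the 10 genes. KLF3 and KLF10 had no window in the set used here. Both were among the genes that rose, so the promoters of the genes that rose were only partly read. Where RefSeq gives several starts, the window nearest the outermost GENCODE start of the gene was taken. Those of 3 genes that rose and of KLF13, which did not pass, are printed below. KLF5 also has a RefSeq window of 71.3% G or C, and KLF7 has others of 43%, 56.7% and 70%. How unlike these start regions look therefore depends on the start taken. Capitals mark the GC box (GGGCGG), the CACCC box (CACCC) and the CCAAT box (CCAAT), each on either strand. GC and CACCC boxes can overlap.
KLF9, chr9:70414608-70414907, minus strand: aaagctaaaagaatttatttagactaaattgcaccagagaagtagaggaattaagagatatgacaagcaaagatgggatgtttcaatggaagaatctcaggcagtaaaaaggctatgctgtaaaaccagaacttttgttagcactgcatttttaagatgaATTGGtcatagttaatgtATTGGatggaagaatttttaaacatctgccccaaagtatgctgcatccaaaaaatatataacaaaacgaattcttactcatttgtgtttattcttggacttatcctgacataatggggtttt
KLF5, chr13:73054726-73055025, plus strand: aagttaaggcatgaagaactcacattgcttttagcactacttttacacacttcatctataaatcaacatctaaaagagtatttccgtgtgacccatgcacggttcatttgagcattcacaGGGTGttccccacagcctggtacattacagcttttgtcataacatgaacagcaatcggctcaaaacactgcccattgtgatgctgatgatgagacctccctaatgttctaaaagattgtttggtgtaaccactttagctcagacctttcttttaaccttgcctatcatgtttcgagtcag
KLF7, chr2:207167197-207167496, minus strand: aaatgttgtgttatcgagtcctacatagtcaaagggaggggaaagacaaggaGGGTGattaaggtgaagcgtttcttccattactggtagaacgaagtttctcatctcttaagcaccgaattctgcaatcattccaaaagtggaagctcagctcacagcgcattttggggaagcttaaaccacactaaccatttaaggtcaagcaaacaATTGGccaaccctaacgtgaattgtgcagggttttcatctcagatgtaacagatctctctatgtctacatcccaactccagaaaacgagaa
KLF13, chr15:31326585-31326884, plus strand: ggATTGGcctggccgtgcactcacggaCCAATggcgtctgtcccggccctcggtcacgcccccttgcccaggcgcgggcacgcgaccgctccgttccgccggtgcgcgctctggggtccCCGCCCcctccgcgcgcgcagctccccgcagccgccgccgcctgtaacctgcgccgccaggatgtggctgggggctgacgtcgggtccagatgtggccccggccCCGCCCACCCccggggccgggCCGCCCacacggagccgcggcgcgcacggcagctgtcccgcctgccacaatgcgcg

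The windows of KLF9, KLF5 and KLF7 were 32.7%, 40.7% and 42.7% G or C and held 0 GC boxes, while that of KLF13 was 78.3% G or C and held 3. The windows of KLF2, KLF4, KLF6 and KLF11 held 6, 4, 2 and 2 GC boxes at 80.7%, 69%, 70.7% and 77.3% G or C. Over 35114 promoter windows the median was 58.7% and a GC box was found in 45%. A CACCC box was found in KLF5, KLF7 and KLF13 (59.9% of all windows) and a CCAAT box in KLF6, KLF7, KLF9 and KLF13 (34.6%). The choice of start bears on this: a second RefSeq window of KLF5, chr13:73058755-73059054, was 71.3% G or C with 2 GC boxes, and a further one of KLF7, chr2:207166807-207167106, was 70% with 4. The E-box CACGTG was in the windows of KLF4, KLF6 and KLF11 (7.26% of all windows) and the TATA box TATAAA in that of KLF5 (11.5%). The sites TGACGTCA (CRE), TGANTCA (AP-1) and TGATGNAA (the amino acid response element) were in none of the 8 windows, where 1.85%, 7.71% and 3.62% of all windows have them. These are matches of letters, on either strand, and not bound sites.

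Transcript features differed among the genes as well. The main transcripts of the 5 genes that rose were 41.5% to 47.0% G or C, and those of the 4 tested and not called 45.9% (KLF6) to 65.2% (KLF2). The 3' untranslated region (UTR) of all 10 holds the AU-rich pentamer ATTTA, and 5 of 10 hold TATTTAT. Among 12056 tested coding genes with a 3' UTR of at least 100 bases, 72.1% hold ATTTA and 34.2% TATTTAT. Such elements are known to mark short-lived mRNAs. The 3' UTRs of the 10 genes were also longer, with a median of 2754 bases against 1148 bases over these genes, and a longer sequence holds more matches. Per kb, ATTTA numbered 2.12 to 3.02 in the 5 genes that rose and 0.893 (KLF13) to 3.56 (KLF2) in the 4 not called, beside a median of 1.71 per kb over these genes. Rocaglates are known to hold eIF4A on purine runs, and 8 of 10 KLF genes had a run of at least 9 purines in the 5' UTR, a length found in 42.5% of these genes, whose 5' UTRs were shorter (median 195 bases against 331.5 bases for the 10). The longest runs were in KLF4 and KLF9 (12 bases), KLF6 (11 bases), and KLF10 and KLF13 (10 bases). The 5' UTR of KLF9, at 1261 bases, was the longest of the 10.

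Among the other 8 KLF genes, KLF8, KLF17 and KLF18 had 0 counts, KLF14 was below the filter, and 1 of 4 tested genes was called in pairs 2 to 4. That gene was KLF12, a CtBP-binding repressor like KLF3, with a log2 fold change of 0.28 ± 0.0838 (SE, adjusted p 0.0227, edgeR), from 38.7 CPM with DMSO to 46.8 CPM with CR31B, and a difference of -0.30 in pair 1. KLF16, named after its values were seen, was lower in each of pairs 2 to 4 without passing, at -0.19 ± 0.0783 (adjusted p 0.0718, edgeR), and higher by 0.26 in pair 1. SP proteins share the zinc finger type and bind the same GC boxes, and 3 of their 7 tested genes were called, all higher. Beside both lists, 41.3% of all genes tested in pairs 2 to 4 were called, 23.8% higher and 17.6% lower. SP3 had a log2 fold change of 0.56 ± 0.048 (adjusted p 1.19e-05) and SP4 of 0.43 ± 0.0509 (8.51e-05), while SP7, at under 1 CPM, had 0.95 ± 0.329 (0.0405, edgeR). In pair 1 the differences were -0.56 for SP3, -0.44 for SP4 and -1.89 for SP7. Over all 8 libraries 0 genes of either list were called, with 0.13 for KLF12, 0.28 for SP3, 0.22 for SP4 and 0.42 for SP7. The median log2 fold change was 0.025 over the 4 tested KLF genes and 0.43 over the 7 tested SP genes.

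Genes that work with KLFs were counted from lists, beside 23.8% called higher and 17.6% called lower over all genes tested in pairs 2 to 4. Of 14 cofactor genes 8 were called higher and 2 lower in pairs 2 to 4 (median 0.30). The acetyltransferase gene EP300 had a log2 fold change of 1.68 ± 0.0713 (adjusted p 5.07e-07), from 131 to 421 CPM, the corepressor gene SIN3A 0.77 ± 0.0542 (3.67e-06), and FBXW7, whose product marks KLF5 for degradation, 0.65 ± 0.0631 (2.54e-05, edgeR). The 2 lower ones were SIN3B (-0.39) and HDAC3 (-0.33), named after their values were seen. Of 18 regulators known to act on KLF genes 16 were tested, 9 were called higher and 1 lower (median 0.56). The glucocorticoid receptor gene NR3C1 rose from 25.7 to 68.6 CPM, a log2 fold change of 1.42 ± 0.0649 (adjusted p 5.07e-07), the thyroid hormone receptor gene THRB had 0.995 ± 0.202 (0.00282) and MEF2D 0.83 ± 0.0512 (1.9e-06, edgeR). ELK4 (-0.20) was the lower one, again named after its value was seen.

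Of 16 genes reported as KLF targets in other cells 14 were tested, 5 were called higher and 1 lower (median 0.11). ATF3 had 1.19 ± 0.111 (adjusted p 1.92e-05), PDGFA 1.03 ± 0.204 (0.00246) and SMAD7, a repressed target of KLF10, 0.84 ± 0.105 (0.000127, edgeR). CCNB1 (-0.17) was the lower one, named in the same way. Of 9 axon growth genes 7 were tested, with 2 higher and 2 lower (median 0.16). STMN2 had -0.81 ± 0.0795 (2.66e-05), CDKN1B 0.66 ± 0.0464 (3.58e-06) and RAB3A -0.38 ± 0.101 (adjusted p 0.0123, edgeR), and the other higher gene was DPYSL2 (0.23), also named after its value was seen. All 12 genes named by rule from these 4 lists had the opposite sign in pair 1, from -1.68 for EP300 to 1.03 for STMN2, and all had an adjusted p of at least 0.707 over the 8 libraries (edgeR). Over all 8 libraries 0 genes of these 4 lists were called, and the medians in list order were 0.17, 0.28, 0.044 and 0.079. Median differences in pair 1 were -0.36, -0.38, -0.16 and 0.050. Over all genes tested in pairs 2 to 4, 23.8% were higher and 17.6% lower.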

How the data were processed

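The authors deposited 1 table with the raw count of each Ensembl gene in each library, without normalization. Per the submitters' processing notes, FastQC 0.11.7, STAR 2.7.2b, edgeR 3.36.0, limma 3.50.3 and GRCh38 were used. The annotation release and counting tool are not given in the sources used here, and of the strand only the word reverse in the deposited table's name may speak. Per the labels, 1 column whose header lacks its first letter was matched to CR31B replicate 4 by the rest of its name. Of 58787 identifiers, 58515 were in GENCODE release 29, the source of coordinates, lengths and UTRs.

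Counts were filtered with filterByExpr, scaled by TMM and tested with edgeR 4.0.16 (glmQLFTest, two-sided, Benjamini-Hochberg over all tested genes, threshold 0.05) in R 4.3.3, in pairs 2 to 4 and in all 8 libraries with layout as a term. SE is the log2 fold change over the square root of F, and pair differences use a prior count of 1. CPM per library uses TMM over all 8. DESeq2 1.42.0, limma voom 3.58.1, other scalings, filters, GC and length offsets and a replicate block were alternatives. The scripts were tested on simulated counts.

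No 2 libraries agreed within sampling noise (smallest mean chi-square per gene 7.22, where 1 is sampling noise), and both libraries of pair 1 were nearest to libraries of the other label. Deviations from group means correlated at 0.206, 0.384 and 0.157 for replicates 2, 3 and 4 of the single-end libraries. The numbers may thus pair these, though correlations between libraries of unlike number were not computed. With all 8 libraries the values were -0.509, -0.068, 0.168 and -0.102 for replicates 1, 2, 3 and 4. Counts include PCR duplicates, and limits from depth cover counting error only.

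All 10 genes are named. From other lists, the rule names relatives past the threshold in pairs 2 to 4, up to 3 called genes of at least 1 CPM per list with the largest change, and the 2 most correlated genes of at least 5 CPM. Some genes that these rules or lists hold are not reported here. The genes and lists were chosen with earlier results of these data known.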

Additional observations from a re-analysis of the deposited data

Results flagged for a closer look

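The treatment difference departed between pair 1 and pairs 2 to 4 (edgeR interaction test) for KLF5 (-1.89), KLF9 (-1.83), KLF3 (-1.58), KLF7 (-0.70), KLF10 (-0.63) and KLF13 (0.33). Layout and pair 1 are the same libraries, so they cannot be told apart. Both pair 1 libraries were nearest in counts to the single-end libraries of the other label, and whether their labels are exchanged is not given in the sources used here.

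In the group labelled DMSO, 1 library lay far from the other 3 for 3 genes that were called in pairs 2 to 4, measured as the ratio of its distance from the closest other library to the whole spread of the group. It was 0.97 for KLF3, 0.879 for KLF5 and 0.832 for KLF9, above Dixon's 95% limit for 4 samples, and the distant library was replicate 1 each time. For KLF11 the ratio was 1 in both groups, which comes from 2 counts in CR31B replicate 1 and 1 count in DMSO replicate 4. In all, 5 of 22 such ratios passed, and they share the same libraries. Chance gives about 1.1 (1 in 20). The KLF11 ratios among the 5 could only be 1, as its other libraries had 0 counts, so the 5 cannot be set against 1.1.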

How the results depend on the processing

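In pairs 2 to 4, KLF3, KLF5 and KLF9 passed under all 10 other scalings, filters, tools and models and in all 6 fits that left out 1 library (KLF3 from 0.70 to 0.91, KLF5 from 0.76 to 0.94, KLF9 from 0.97 to 1.24). Without single libraries the uncalled KLF4 ranged from 0.15 to 0.41, KLF6 from 0.051 to 0.17, KLF2 from -0.84 to -0.18 and KLF13 from -0.14 to -0.076, with 0 of 6 fits past the threshold each. KLF13 passed as lower in 5 of the 10 settings. KLF7 passed in 9 of the 10 and KLF10 in 8 of the 10, and KLF10 in 5 of the 6. The number of KLF genes called was 4 to 7 over the 10 settings and 4 to 5 without single libraries. With the replicate block in pairs 2 to 4 it was 7, adding KLF4 and KLF13, and it changed no other KLF call; over all 8 libraries the block called 0. Over all 8 libraries it was 0 throughout, except 5 with the single-end libraries alone and 5 without CR31B replicate 1 or without DMSO replicate 1, a range of 0 to 5 over the 8 fits without a library. KLF13 over all 8 libraries ranged from -0.11 to 0.011 in these fits, with the positive values 0.0090 without CR31B replicate 3 and 0.011 without DMSO replicate 4; the cause was not tested. Summed over the 10 genes, median levels were 73.5 CPM per kb of exon and 89.9 per kb of the main transcript, the one with the longest coding sequence. That transcript is at most as long as the merged exons. In the interaction test, upper quartile scaling moved the median of all genes by 0.21 and total counts by 0.17, and KLF10 was not called under either (-0.43 and -0.46). The share of higher among called genes in pairs 2 to 4 was 57.5% with TMM, 40% with upper quartile scaling and 43.1% with total counts. Low counts limit KLF2 and KLF11.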
